A study of Mus musculus with 6 samples.

Results

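Distant alternative starts are events in which transcripts of a gene begin at different first exons, in a region that spans more than 10 kb. The span runs over the whole event, so the starts themselves can lie closer together. The members were all events typed as an alternative start whose listed position spanned more than 10000 bases from its lowest to its highest coordinate, with no use of any measured value. By this rule 1300 of the 13002 events in the table were members, and they made up 57.4% of the 2263 alternative starts, and the other 963 alternative starts spanned up to 10 kb. The members lay in 1213 genes by symbol. Pooled intensities were listed for 1296 of them, and for 8430427H17Rik, 4831426I19Rik, Dnmt1 and Spats2 none were.

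The samples were whole brains of 6 mice of a B6.CAST congenic line, 3 homozygous for the B6 allele of the RNA export gene Nxf1 and 3 homozygous for its CAST allele. The line is bred onto B6, and a CAST segment of chromosome 19 travels with the Nxf1 CAST allele, so that Nxf1 and the other genes of the segment cannot be told apart. The mice formed 3 same-sex littermate pairs, 2 female and 1 male. The first pair was 46 days old and the other female pair 23 days old. Of the male littermates, the Nxf1 B6 mouse was 22 and the Nxf1 CAST mouse 23 days old by the labels. Total RNA of each brain was hybridized to 1 Affymetrix MJAY array, which carries probe sets for exons and junctions that belong to 1 path of an alternative event. The table gives, per event, an exclusion path and an inclusion path, each with 1 intensity pooled over a set A and 1 pooled over a set B. Set A was likely Nxf1 B6 and set B likely Nxf1 CAST, because the table defines its score as mutant over wild type and the methods as CAST over B6, which runs from set A to set B. No value per mouse was listed, so no spread between mice, no interval and no test could be had for any event, and every difference given here is a description of 2 pooled sets.

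A gene with distant promoters can use each in a different cell type, at a different age or after a different signal, since each promoter answers to its own enhancers. The first exons differ, and the transcripts may then share the rest of the gene, lose an N-terminal domain or shift translation to an internal start codon. Brain genes are rich in this arrangement. Neurexins, phosphodiesterases of the Pde4 family, dystrophin-related proteins, ankyrins and many synaptic scaffolds make long and short forms from promoters set far apart. Promoters used in most tissues often lie in CpG islands, stretches that have kept their CG dinucleotides, while promoters limited to few cell types more often lack them.

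The shift of an event was the log2 ratio of exclusion to inclusion intensity in set B minus the same log2 ratio in set A. Above 0 it means relatively more signal on the exclusion path in set B. The 2 paths of all 2248 measured alternative starts were mirror images of each other and carried the same position, so 1 shift described each event, and the table's columns did not tell which path held the upstream start. Directions below are therefore of the exclusion path, not of the distal or the proximal start.

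The members spanned 10018 to 2211053 bases, with a median of 39759 and quartiles of 20590 and 87381. Spans over 100 kb were found for 273 members, and spans over 1 Mb for 9. The longest were Cntnap2, a neurexin-related adhesion protein of axons (2211053 bases), uc007pgx-1, named in the table only by a transcript identifier (2067148), Lrp1b, a giant receptor of the LDL receptor family (2042091), Ptprd, a receptor tyrosine phosphatase of synapses (1886465), and Lsamp, an adhesion protein of limbic neurons (1549083). Members were placed on the plus strand in 685 cases and on the minus strand in 615. Chromosome 11 held the most (95) and chromosome X the fewest (40) of the assembled chromosomes. At the lower bound, H2-DMb1 (10018 bases, shift 0.05), Uba1 (10029 bases, -0.30) and Cast (10043 bases, -0.27) were just inside, and Gsg1 (9938 bases, 0.12), uc007lyw-1 (9936 bases, 0.05) and Abp1 (9935 bases, -0.32) just outside.

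To show what the distant starts look like as DNA, promoter windows of RefSeq genes were set beside the members. Of the 1213 member genes, 1131 had a symbol or a unique synonym in RefSeq, 945 had at least 1 promoter sequence there, and 514 had 2 or more. A pair of RefSeq starts on the same chromosome and strand, at a distance of more than 50% of the span and no more than the span, was found for 298 members in 292 genes, at a median distance of 36460 bases. The genome build behind the table's positions is not given in the sources used here, so starts were matched by gene, strand and distance and not by coordinate. RefSeq may hold starts other than those the array measured. Below are the 6 measured members with the largest absolute shifts among those with a pair covering more than 80% of the span, each from 120 bases before to 30 bases after the RefSeq start, in GRCm38.p6, 5′ to 3′ on the gene's strand, with CG dinucleotides in capitals.
Sv2b upstream (chr7:75309233-75309382, - strand): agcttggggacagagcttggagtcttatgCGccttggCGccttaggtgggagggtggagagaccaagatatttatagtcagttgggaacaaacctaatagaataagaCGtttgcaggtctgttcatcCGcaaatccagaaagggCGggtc
Sv2b downstream (chr7:75219990-75220139, - strand): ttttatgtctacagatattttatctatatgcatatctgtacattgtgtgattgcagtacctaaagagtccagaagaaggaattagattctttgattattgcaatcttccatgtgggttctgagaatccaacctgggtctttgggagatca
Runx3 upstream (chr4:135120525-135120674, + strand): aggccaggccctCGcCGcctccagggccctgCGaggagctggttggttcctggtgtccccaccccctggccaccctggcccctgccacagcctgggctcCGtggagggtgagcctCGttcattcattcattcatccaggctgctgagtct
Runx3 downstream (chr4:135152425-135152574, + strand): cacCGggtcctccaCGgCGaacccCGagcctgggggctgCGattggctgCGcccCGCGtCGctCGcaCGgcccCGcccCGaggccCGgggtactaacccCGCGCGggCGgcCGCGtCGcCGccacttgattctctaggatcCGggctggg
Il33 upstream (chr19:29924993-29925142, + strand): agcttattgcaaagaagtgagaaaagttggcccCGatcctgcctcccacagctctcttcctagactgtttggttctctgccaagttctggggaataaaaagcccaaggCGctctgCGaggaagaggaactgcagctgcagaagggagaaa
Il33 downstream (chr19:29945670-29945819, + strand): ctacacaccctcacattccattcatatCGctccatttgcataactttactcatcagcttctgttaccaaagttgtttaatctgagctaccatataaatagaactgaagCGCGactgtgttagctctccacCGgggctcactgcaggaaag
Olfm3 upstream (chr3:114903958-114904107, + strand): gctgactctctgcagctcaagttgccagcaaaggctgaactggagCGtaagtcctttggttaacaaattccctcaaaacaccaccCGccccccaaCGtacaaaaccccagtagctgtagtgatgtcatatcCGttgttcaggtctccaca
Olfm3 downstream (chr3:115080845-115080994, + strand): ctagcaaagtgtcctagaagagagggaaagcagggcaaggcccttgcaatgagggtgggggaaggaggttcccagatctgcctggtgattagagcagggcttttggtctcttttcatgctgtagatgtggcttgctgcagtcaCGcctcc
Kcnj16 upstream (chr11:110967913-110968062, + strand): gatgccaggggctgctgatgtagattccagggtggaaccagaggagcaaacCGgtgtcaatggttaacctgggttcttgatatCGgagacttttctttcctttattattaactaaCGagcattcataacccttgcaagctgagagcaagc
Kcnj16 downstream (chr11:111023740-111023889, + strand): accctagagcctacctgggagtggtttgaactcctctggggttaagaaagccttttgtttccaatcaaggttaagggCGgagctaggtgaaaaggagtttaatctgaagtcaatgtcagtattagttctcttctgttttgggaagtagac
Slc44a2 upstream (chr9:21320599-21320748, + strand): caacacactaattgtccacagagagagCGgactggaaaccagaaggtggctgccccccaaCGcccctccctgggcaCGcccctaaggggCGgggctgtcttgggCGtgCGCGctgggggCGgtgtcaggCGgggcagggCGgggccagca
Slc44a2 downstream (chr9:21337708-21337857, + strand): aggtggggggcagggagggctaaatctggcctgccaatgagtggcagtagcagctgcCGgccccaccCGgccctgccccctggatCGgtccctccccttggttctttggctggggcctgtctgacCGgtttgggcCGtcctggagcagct

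Runx3, a Runt-family transcription factor of sensory neurons and lymphocytes, shows the contrast between a CpG-poor and a CpG-rich start. Its upstream window of 150 bases held 5 CG dinucleotides and its downstream window 23. Over the full 300 bases the ratio of observed to expected CG was 0.26 upstream and 1.01 downstream, and the starts lay 31900 bases apart in an event of 32144 bases. In Sv2b, which encodes a glycoprotein of synaptic vesicles, the upstream window held 5 and the downstream window none, with ratios of 0.52 and 0. Both windows of Il33, an alarmin cytokine kept in the nucleus, were CpG-poor (0.37 and 0.38) and the 300 bases around both starts held a TATAAA match on either strand. Slc44a2, a choline transporter-like protein, had 10 CG dinucleotides upstream and 5 downstream, while Olfm3, a secreted olfactomedin protein, and Kcnj16, an inward rectifier potassium channel subunit, had 4 or fewer in every window.

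Over the 298 pairs, the upstream RefSeq start was richer in CG than the downstream start. The median observed to expected ratio was 0.616 upstream and 0.325 downstream, beside 0.384 over all 32851 promoters of the RefSeq table. The median GC content was 60.7% upstream, 54.0% downstream and 52.7% over all. A window was called CpG-rich when its ratio was above 0.6 and its GC content at least 50%, and this held for 147 upstream windows (49.3%), 71 downstream windows (23.8%) and 33.4% of all promoters. Only the upstream window was CpG-rich in 118 pairs, only the downstream window in 42, both in 29 and neither in 109. The motifs were short and were searched on both strands of the 300 bases, and the letters of none contain another. The GC box GGGCGG was found in 56.0% of upstream, 34.6% of downstream and 35.7% of all windows. The TATA box TATAAA was found in 6.71%, 11.1% and 13.6%, and CCAAT in 34.9%, 35.6% and 37.4%, in the same order. A match is a run of letters and was not tied to binding of a factor.

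**Figure D1:**
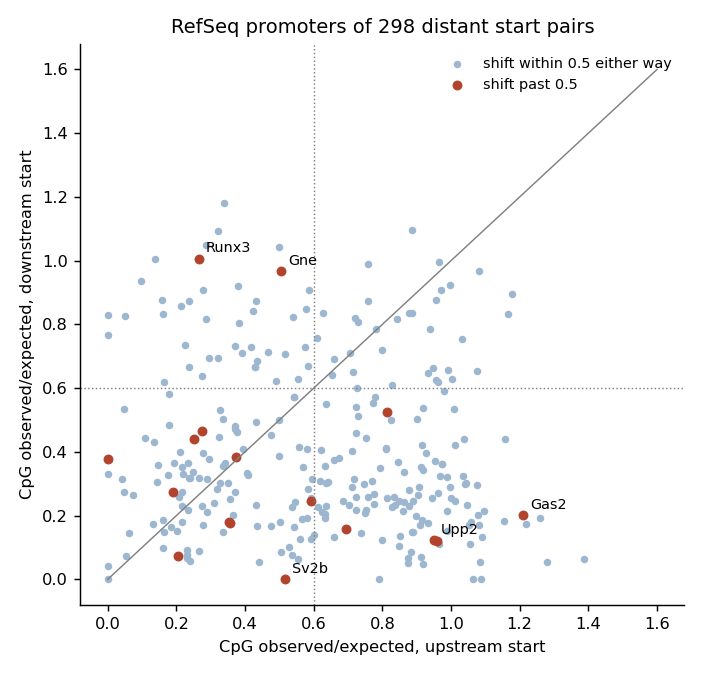
Each point is 1 of 298 distant alternative starts with a matching pair of RefSeq starts, with the observed to expected ratio of CG dinucleotides at the upstream start on the x axis and at the downstream start on the y axis, over 300 bases each. Dotted lines mark 0.6, the diagonal marks equal ratios, and red points are members with an absolute shift past 0.5. More points lie at the lower right, CpG-rich upstream only, than at the upper left, where Runx3 and Gne sit.

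The median absolute shift was 0.13 for the 118 members CpG-rich upstream only, 0.142 for the 42 CpG-rich downstream only, 0.1 for the 29 CpG-rich at both and 0.117 for the 109 CpG-rich at neither. Past 0.5 were 5, 2, 0 and 10 members of these classes, or 4.24%, 4.76%, 0% and 9.17%. Over all 298 pairs 17 members passed it (5.7%), beside 7.34% of all events. These are counts from pooled sets, and the classes were not tested against each other.

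Across all measured members, start choice was close to equal in the 2 sets. The median shift was 0.007, with quartiles of -0.141 and 0.167, and 663 members lay above 0 and 633 below. An absolute shift past 0.5, a 1.41-fold difference between the sets in the exclusion to inclusion ratio, was found for 85 members in 85 genes. This was 6.56% of the 1296, beside 7.34% of the 12948 events of all kinds and 5.99% of the 952 alternative starts spanning up to 10 kb. By direction, 44 members were above 0.5 and 41 below -0.5, or 3.4% and 3.16% of the members, beside 4.52% and 2.72% of the 12553 events of all kinds with an exclusion path. The median absolute shift was 0.155 for the members, 0.173 for the shorter starts and 0.176 for all events, and the 99th percentile was 0.729, 0.667 and 0.772. The share past 0.5 thus lay near the share over all events. With 50 added to every intensity, 36 of the 85 were still past 0.5. Only Serpina3m, Rapgef5 and Pde7a passed 1, out of 29 events of all kinds that did. With 50 added to every intensity their shifts were 1.58, -1.28 and 0.80, so that Pde7a no longer passed 1.

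**Figure D2:**
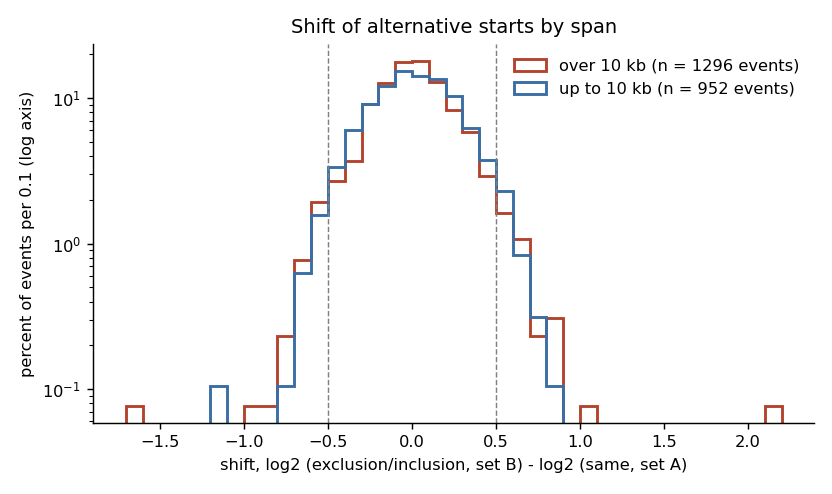
The x axis is the shift (log2) of each alternative start, in bins of 0.1, and the y axis the percent of events per bin on a log axis, for the 1296 starts spanning over 10 kb (red) and the 952 spanning up to 10 kb (blue). Dashed lines mark 0.5 either way, past which lay 6.56% of the first and 5.99% of the second.

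Members with longer spans did not have larger shifts. The median absolute shift was 0.167 for the 309 members spanning up to 20 kb, 0.161 for the 455 from there to 50 kb, 0.159 for the 259 from there to 100 kb, and 0.13 for the 273 above 100 kb. Past 0.5 were 6.47%, 7.25%, 6.18% and 5.86% of them. Of the 5 longest members only Lrp1b passed 0.5. Its exclusion path read 252 and 309 in sets A and B, its inclusion path 900 and 750, for a shift of 0.56. Cntnap2 had a shift of -0.28, Lsamp -0.10, Ptprd 0.18 and uc007pgx-1 -0.05.

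Serpina3m had the largest shift of any event in the table, at 2.13. It encodes a serine protease inhibitor of the antichymotrypsin family, and its start event was placed at chr12:105576735-105627418 on the plus strand. The exclusion path read 96 and 127 in sets A and B, and the inclusion path 288 and 87, so that most of the shift came from the inclusion path (log2 ratios of set B to set A of 0.40 and -1.73). The study's gel assays of Serpina3m and Runx1 were not analysed here.

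The alternative end of Serpina3m was also past 0.5. It read 564 and 194 on the exclusion path and 202 and 205 on the other, an absolute shift of 1.56. Events of a gene can share exons, so the start and the end may not be separate readings. Serpina3 genes are close copies of each other that lie in a cluster, and probe sets may take up RNA of a neighbour, so the gene's values are uncertain in this respect. Serpina3f, the only other gene of the cluster with events in the table, had absolute shifts of 0.11 in its start event and 0.08 in its end event. Runx1, a Runt-family transcription factor of blood cells and neurons, read 181 and 170 on the exclusion path and 84 and 66 on the inclusion path, for a shift of 0.26, short of 0.5.

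Rapgef5, an exchange factor that loads Rap GTPases with GTP, had the second largest shift of all events, at -1.61. Its exclusion path read 510 and 295, and its inclusion path 92 and 162. The paths thus differed in opposite directions by similar amounts, -0.79 and 0.82 on the log2 scale, and lay closer together in set B. Pde7a, a phosphodiesterase that breaks down cyclic AMP, came next among the members at 1.01, with 125 and 216 on the exclusion path and 334 and 286 on the other. In Sv2b the shift of -0.95 came from the exclusion path, which read 371 and 169. The inclusion path, at 1349 and 1185, was lower in set B as well, which offset part of the difference. Sv2b was the largest shift among members without a dim probe set.

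Ratios of dim probe sets are more open to background signal, so members were also ranked with all 4 intensities at or above 160, the 25th percentile of the intensities in the table. This left 738 members, of which 39 (5.28%) passed 0.5, 25 above it and 14 below -0.5, beside 6.56% of all members. The share over all events with the same filter is not given here. The other 46 members past 0.5 had at least 1 intensity under 160, and 16 of them had 1 under 100. The 10 highest among the bright members were Neurl, Olfm3, Trpc4, Parva, Lrrc1, Dlx6os1, Mylk, Tcerg1l, Odz4 and Il1r1, and the 10 lowest Sv2b, Wibg, Cttnbp2, Cabin1, Slc14a1, Cbx6, uc008zzk-1, Dscaml1, Samd4 and Fut8.

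Neurl, a ubiquitin ligase that acts on Notch ligands, was highest at 0.87. Its exclusion path read 262 and 320 and its inclusion path 945 and 630, and both contributed. Olfm3 read 195 and 281 on the exclusion path and 852 and 729 on the inclusion path, for a shift of 0.75. Trpc4, a cation channel opened downstream of receptors, read 370 and 411 against 896 and 614 (0.70), with most of its difference on the inclusion path. Mylk, myosin light chain kinase, differed almost only on the inclusion path, 1550 in set A and 918 in set B, while its exclusion path read 432 and 398 (0.64). Il1r1, the receptor of interleukin 1, was the reverse, with 280 and 404 on the exclusion path and 192 and 181 on the inclusion path (0.61).

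The rest of the highest bright members differed on both paths in opposite directions. Parva, an actin-binding partner of integrins, read 221 and 278 on the exclusion path and 574 and 450 on the inclusion path (0.68). Dlx6os1, a noncoding RNA from the antisense strand of Dlx6, read 661 and 774 against 368 and 269 (0.68). Reads from the other strand are kept apart on an array only by the probe sequences, which were not analysed here. Lrrc1, a leucine-rich repeat protein of cell polarity, had a shift of 0.68, Tcerg1l, a relative of an elongation factor, 0.63, and Odz4, a teneurin that guides axons and myelination, 0.62.

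Among the lowest, Cbx6 was read by the brightest probe sets. It encodes a chromobox protein of Polycomb complexes, and its exclusion path read 2086 and 1346 while its inclusion path read 2566 and 2441 (-0.56). Cttnbp2, a cortactin-binding protein of dendritic spines, likewise differed on the exclusion path, 686 and 426, and hardly on the inclusion path, 1586 and 1505 (-0.61). Wibg, which helps to recycle exon junction complexes from translated mRNA, read 211 and 176 against 342 and 449 (-0.65). In this gene the inclusion path made up most of the shift.

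The same was seen in Slc14a1, a urea transporter of astrocytes, at 453 and 407 on the exclusion path and 389 and 517 on the inclusion path (-0.56). It was also seen in Dscaml1, an adhesion protein of neurons, at 1064 and 942 against 231 and 296 (-0.53). Cabin1, an inhibitor of calcineurin, had a shift of -0.57, uc008zzk-1 of -0.55, Samd4, an RNA-binding repressor of translation, of -0.52, and Fut8, which adds core fucose to glycoproteins, of -0.51. Of the 20 members ranked, uc008zzk-1 (-0.46), Dscaml1 (-0.47), Samd4 (-0.44) and Fut8 (-0.48) came within 0.5 when 50 was added to every intensity.

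**Figure D3:**
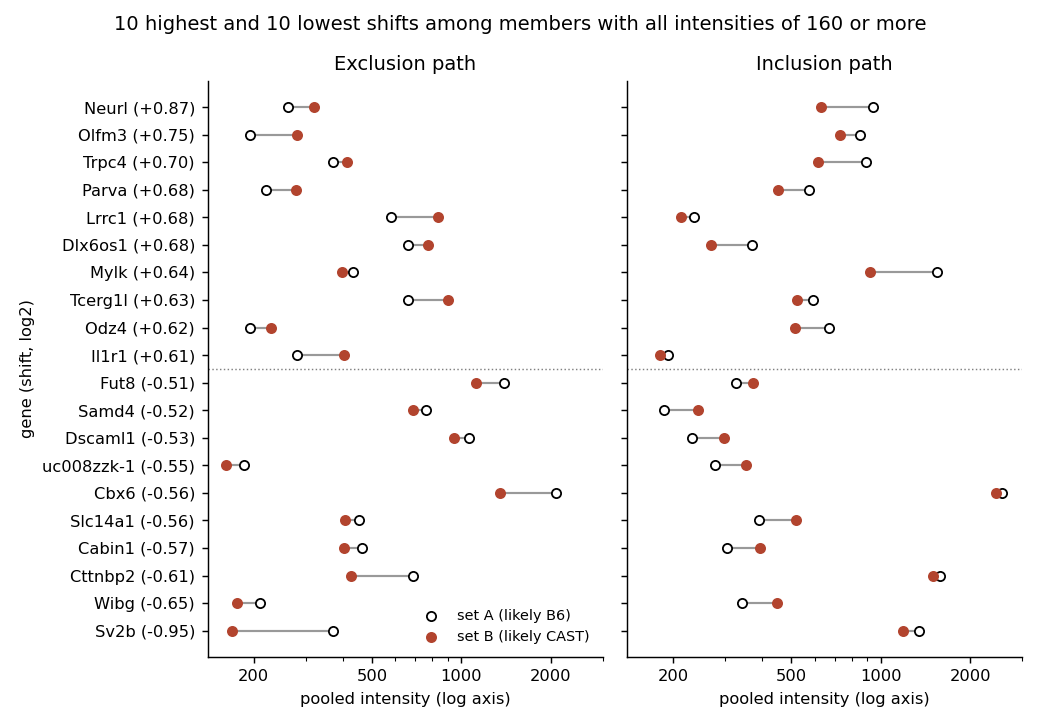
The left panel shows the exclusion path and the right panel the inclusion path of the 10 highest and 10 lowest shifts among the 738 members with all 4 intensities at or above 160, with the pooled intensity on a log axis, open circles for set A (likely Nxf1 B6) and red circles for set B (likely Nxf1 CAST), and the shift beside each gene. In the upper 10 genes the red circle lies to the left on the inclusion path, by the widest distance in Mylk (1550 to 918), and in the lower 10 it lies to the left on the exclusion path, by the widest distance in Sv2b (371 to 169).

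Among members with a dim probe set, those with large shifts were chosen here after their values were seen. Runx3 read 203 and 127 on the exclusion path and 456 and 517 on the inclusion path (-0.86). Nav2, a neuron navigator that binds microtubules, read 112 and 173 against 481 and 406 (0.87), and Sept9, a septin that forms filaments, read 650 and 740 against 161 and 103 (0.83). Il33 read 90 and 119 against 421 and 326 (0.77). Each of these genes had 1 path with an intensity under 160. Tbc1d4, a Rab GTPase activator of insulin-driven glucose transport, had a shift of 0.80, Tbpl1, a relative of the TATA-binding protein, of -0.77, and Mbnl1, a regulator of alternative splicing, of -0.68.

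The 85 members past 0.5 were mostly ones whose paths differed in opposite directions. This was so for 77 of them (90.6%), against 494 of all 1296 members (38.1%), which follows in part from the way the shift is built. Both paths differed by more than 0.25 on the log2 scale and in opposite directions in 16 of the 85, among them Rapgef5 and Il33. In 11 of the 85, 1 path differed by more than 0.5 and the other by less than 0.1, Cbx6, Cttnbp2 and Il1r1 among them. The path with the larger difference was the exclusion path in 55 of the 85 (64.7%), beside 55.1% of all members and 59.6% of the shorter starts past 0.5.

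**Figure D4:**
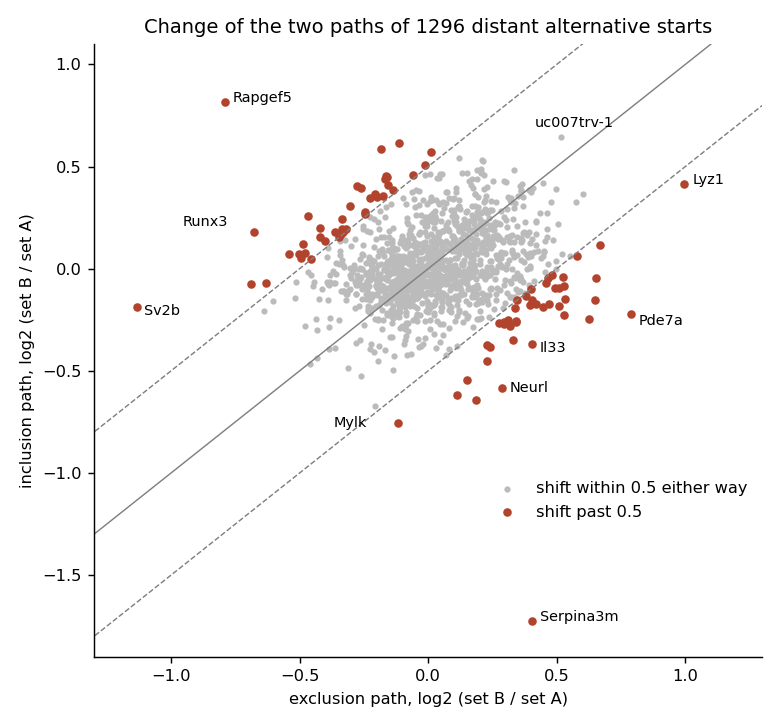
Each point is 1 of 1296 members, with the log2 ratio of set B to set A of its exclusion path on the x axis and of its inclusion path on the y axis. The solid line marks equal change of both paths and the dashed lines a shift of 0.5 either way. Red points are the 85 members past it, of which 77 had paths that differed in opposite directions, and Serpina3m (0.40 and -1.73) and Rapgef5 (-0.79 and 0.82) lie farthest out.

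The mean of the 2 path ratios, which follows the signal of a gene over both paths and not the choice between them, was small in most members. It had a median of 0.016 and an SD of 0.161 over members on the log2 scale, and was above 0.25 in 103 members and below -0.25 in 40. It was highest in Lyz1, a lysozyme that cuts bacterial cell walls, at 0.71, where the exclusion path read 216 and 431 and the inclusion path 248 and 331. Its alternative end also differed, with 172 and 441 on the inclusion path and 130 and 132 on the other. Lyz1 has a near-identical neighbour, Lyz2, the lysozyme of macrophages and microglia, so its probe sets are uncertain. Microglia markers had summed intensities of 1176 and 1207 in sets A and B. Their part in the Lyz1 values was not tested. In bulk tissue, fewer cells of a type and less RNA per cell cannot be told apart. Only uc007trv-1 had both paths above 0.5, at 315 and 450 on the exclusion path and 135 and 211 on the inclusion path, and no member had both below -0.5. The lowest means, both -0.66, were those of Serpina3m, whose paths differed in opposite directions, and Sv2b, where the exclusion path made up most of it.

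Gene lists were drawn up mostly by function or family, and members on them were mostly alike in the sets. The 10 lists held 119 members, of which 6 (5.04%) passed 0.5, beside 6.56% of all members, and their median absolute shift was 0.137 beside 0.155. With 50 added to every intensity 3 of the 6 were still past 0.5, and with the brightness trend removed 5. No list had more than 3 members past it. The lists were chosen with earlier results of these data known, and no test was made of them.

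Exchange factors and GTPase activators switch small GTPases and heterotrimeric G proteins on and off. Of their 24 members 2 were above 0.5 and 1 below -0.5, where 7.34% of all events had an absolute shift past 0.5. So few members cannot be set against that share. The median absolute shift of the list was 0.116, beside 0.155 for all members. Its members past 0.5 were Rapgef5, Arhgef7 and Rgs6. Arhgef7, a Rac and Cdc42 exchange factor of spines, read 384 and 465 against 648 and 539 (0.54). Rgs6, which turns off heterotrimeric G proteins, read 243 and 339 against 455 and 445 (0.51). With 50 added to every intensity both were under 0.5 (0.49 and 0.44), and Rgs6 was also with the brightness trend described below removed (0.48). Tiam1, Vav3 and Srgap1 had shifts of 0.09, 0.08 and 0.03. Among cyclic nucleotide phosphodiesterases 1 of 10 members passed 0.5, Pde7a, and the lowest was Pde5a at -0.22. The next highest, Pde8b, was at 0.39. The 3 members of Pde4b, whose promoters give long and short forms of the cyclic AMP phosphodiesterase 4B, lay between -0.07 and 0.11, with intensities of 371 to 2675.

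Among the 10 members of the list for ion channels and their accessory subunits only Trpc4 passed 0.5. The median absolute shift of the list was 0.2. Kcnj16, a channel subunit that was not on the list, was at -0.61, or -0.40 with 50 added to every intensity. Kcnma1, the large-conductance calcium-activated potassium channel, read 709 and 887 on the exclusion path and 1166 and 1109 on the inclusion path (0.40), and Clcn3, a chloride transporter of vesicles, was lowest at -0.31. Among 20 members for transcription factors with several promoters only Erg, an ETS factor of endothelium, passed, at 79 and 59 against 203 and 233 (-0.62, or -0.40 with 50 added to every intensity), where the exclusion path lies among the dimmest of the members. Pparg, a nuclear receptor of fat cells, was highest at 0.49. Endothelial and choroid plexus markers summed to 1411 and 1303 in sets A and B. Their part in the Erg values was not tested.

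The remaining lists had no member past 0.5. The lists were not complete, and genes of the same kinds that were not on them did pass it. Among these were Dscaml1 (-0.53) and Odz4 (0.62) for adhesion and guidance, and the kinase Mylk (0.64). The 17 members for receptors and synaptic scaffolds ran from -0.35 in Rims1, an active zone protein, to 0.39 in Dlgap2 and Dlg3, scaffolds of the postsynaptic density. The 14 members for ankyrins, spectrins and cytolinkers ran from -0.24 in Mtap2, which stabilizes dendritic microtubules, to 0.35 in Ank2 and Tln2. The 13 members for cell adhesion and guidance ran from -0.28 in Cntnap2 to 0.21 in Nrcam, and the 9 protein kinases from -0.42 in Prkcz, an atypical protein kinase C, to 0.23 in Srpk2, a kinase of SR splicing factors.

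Neurexins and neuroligins were represented by Nrxn2 at 0.04 and Nlgn1 at 0.08. Nrxn2, a gene with an upstream alpha and a downstream beta promoter, read 1591 and 1380 on the exclusion path and 1227 and 1036 on the inclusion path, lower in set B on both alike. Clustered protocadherins had no member.

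Several distant starts were listed for 79 genes, 71 with 2 and 8 with 3, and 78 of them had at least 2 measured. Events of a gene can share exons. The range of the shift within these 78 genes had a median of 0.226. All shifts of the gene had the same sign in 38 of the 78, and 9 genes had 1 member past 0.5 and none had 2. Insc, an adaptor of spindle orientation, came nearest, with -0.61 and -0.46. Odz4 had 0.62 and 0.28 and Mtus1, a microtubule-associated tumour suppressor, 0.60 and 0.23, while Cabin1 had -0.57 and -0.05 and Nav1, a neuron navigator, 0.73 and 0.09.

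Crem had the widest range, 1.08. It encodes repressors and activators that bind cyclic AMP response elements, and an internal promoter makes its short inducible form. The event at -0.73 read 83 and 60 on the exclusion path and 112 and 134 on the inclusion path, at the dim end of the array. Its other events were at 0.35 and 0.19, so the signs were mixed. The 2 members of Samd4 lay at -0.52 and 0.24 and those of March1, a ubiquitin ligase, at -0.61 and 0.00, and those of Bcl9l, a Wnt coactivator, at -0.51 and 0.03. The 3 members of Mtap2 all lay below 0, at -0.24, -0.19 and -0.12, the 3 of Dlg2 between -0.02 and 0.22, and the 3 of Phactr1 between 0.02 and 0.12.

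Other splicing events of the genes with a shifted distant start were mostly within 0.5. Of the 85 genes, 47 had 70 other events in the table, and 7 of these passed 0.5, where the share over all events was 7.34%. They were the ends of Serpina3m and Lyz1 given above, a complex event of Nav2 (absolute shift 1.02), cassette exons of Upp2 and March1 (0.68 each), a retained intron of Vamp1 (-0.62 on the exclusion path) and an end of Tsc22d4 (absolute shift 0.53). In Vamp1, synaptobrevin 1, the distant start read 175 and 125 on the exclusion path and 4708 and 5114 on the inclusion path (-0.60), and the retained intron event 1165 and 725 against 1126 and 1076.

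Members in the part of the congenic segment between Fkbp2 and Stx3 were few. Between the outermost events of Fkbp2 and Stx3 on chromosome 19, from 7053631 to 11866235 in the table's positions, lay 3 of the 46 members on that chromosome. Mark2, a kinase of microtubule-binding proteins, read 293 and 321 against 883 and 897 (0.11), Syt7, a calcium sensor of vesicle fusion, 1342 and 1153 against 2717 and 2378 (-0.03), and Rab3il1, an exchange factor for Rab3, 922 and 1156 against 378 and 378 (0.33). None passed 0.5, and 3 members on the chromosome outside this window did, Neurl, Il33 and Glis3. The ends of the segment are not given in the values used here, so whether members outside the window lie in it was not tested.

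Brightness moved with the shift. Over all events, the median log2 ratio of set B to set A was 0.054 in the dimmest 20% of paths (intensities of 59 to 139) and -0.036 in the brightest 20% (736 to 13075), and for paths of the members it was 0.093 and -0.048. The path with the dimmer probe set was the one favoured in set B in 55 of the 85 members past 0.5 (64.7%), against 701 of all 1296 (54.1%). With this trend removed, 67 of the 85 were still past 0.5, and Serpina3m (2.12), Rapgef5 (-1.54), Pde7a (0.98), Olfm3 (0.70) and Neurl (0.83) were little altered. Past 0.5 were 7.11% of the 225 members with the lowest intensity up to 100, 8.82% of the 340 from there to 160, 6.53% of the 429 from there to 300, and 3.64% of the 302 above 300.

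**Figure D5:**
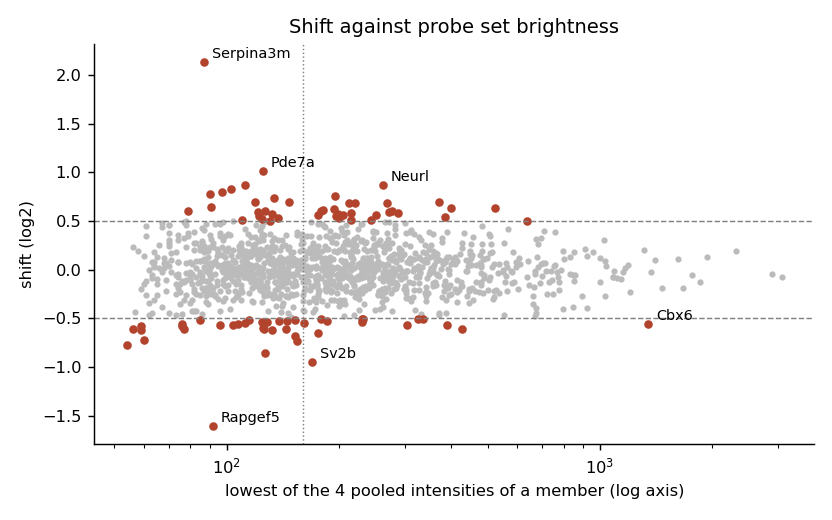
Each point is 1 of 1296 members, with the lowest of its 4 pooled intensities on a log x axis and its shift (log2) on the y axis. Dashed lines mark 0.5 either way, past which points are red, and the dotted line marks 160. Red points are sparser on the right, where 3.64% of the 302 members above 300 passed 0.5, and Cbx6 is the only one above 1000.

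The markers with events in the table went with the brain label by their highest values, though the lowest astrocyte marker read only 416. Set A intensities of the brighter path reached 12087 among 8 neuron markers, 9980 among 6 astrocyte markers and 11314 among 5 oligodendrocyte markers, and were at most 434 among 4 microglia markers and 712 among 3 endothelial and choroid plexus markers. No marker differed between the sets by more than 0.25 on the log2 scale. The median log2 ratio of set B to set A was 0.02 for neurons, 0.057 for astrocytes and -0.049 for oligodendrocytes. Dcx, the only measured marker of immature neurons, read 785 in set A and 670 in set B. The liver markers had no events in the table, so the absence of liver RNA could not be checked.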

How the data were processed

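Whole-brain RNA of 3 Nxf1 B6 and 3 Nxf1 CAST mice was hybridized to 1 MJAY array each. The authors' deposited table lists, for each path, exclusion and inclusion probe set intensities on a linear scale, with the arrays of each set already combined into 1 value, and the labels name Affymetrix Power Tools. Background correction, normalization, the pooling statistic and the genome build are not given in the sources used here. The deposited log2 separation scores (mutant over wild-type skip to include ratio) and their q-values are the authors' own comparison and were not used. With pooled values only, there was no test and no error, and 3 arrays a set make each value imprecise.

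Paths were joined by event name. The shift was the log2 exclusion to inclusion ratio of set B minus that of set A, an event of several paths took the largest absolute shift, and an absolute shift over 0.5 was counted. The columns did not tell which path is upstream, so the planned distal and proximal directions were not computed. Gene cells holding a date for 4 members were read from the event name. Named members were those with the 10 highest and 10 lowest shifts with all intensities at or above the 25th percentile. List members past 0.5 or at a list's ends were named too, as were the longest and those nearest 10000 bases. So were those between Fkbp2 and Stx3, those taken to gels, and genes with several members. Others were named after their values were seen. Members and lists were chosen with earlier results of these data known. RefSeq symbols and promoter windows of 250 bases before and 50 after each start came from GRCm38.p6. The trend with brightness was a lowess curve (span 0.3) of the log2 set B to set A ratio on the mean log2 intensity. The steps were run on simulated data with little noise and planted shifts well past the threshold, which checks the arithmetic and not the counts given here. Python 3.11.15, numpy 2.4.6, pandas 2.3.3, statsmodels 0.14.6 and matplotlib 3.10.9 were used.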

Additional observations from a re-analysis of the deposited data

How the results depend on the processing

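The count of 85 members past 0.5, 44 above it and 41 below -0.5, moved with the threshold and with the handling of dim probe sets. With 50 added to every intensity it was 36 (24 and 12), and with a threshold of 1 it was 3 (2 and 1). With only members at or above the 25th percentile of intensity it was 39 (25 and 14), an alternative chosen after seeing the data, as was removing the brightness trend, which gave 77 (40 and 37). For the first 3 of these, the construction itself lowers the count, by shrinking ratios of dim probe sets, by a stricter threshold and by leaving members out. The counts moved by less than 1.5 times with a filter at 100, centring on the median shift of all events, and spans over 20000 or 5000 bases. The same held with no chromosome 19, 1 event per gene and a 1.4-fold threshold. The mean over paths could not alter any value, since the 2 paths of each start mirror each other. The median absolute shift of 0.155 lay between 0.123 and 0.157 under all alternatives run. The distal and proximal counts and the median distal shift could not be computed. No paired analysis was possible because the values are pooled over the mice of each set, and for the same reason no mouse could be left out.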
